A study of Rattus norvegicus with 4 samples.

Results

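The genes described here are 10 transcripts of mononuclear phagocytes, Mrc1, Cd163, Csf1r, Tyrobp, Cd68, Ctss, Lyz2, C1qa, C1qb and C1qc. They were taken by symbol from 32402 features, and all 10 were found in each of the 4 count matrices. Kidney sections of Sprague-Dawley rats, 10 µm thick and cut from frozen tissue embedded in OCT, had been laid on Visium slides, on which each spot captures the RNA of a small region that can hold several cells. The study set out to test a fasting-mimicking diet low in salt (LS-FMD) in kidneys damaged by puromycin aminonucleoside (PAN), a toxin of podocytes. There was 1 section per group. The PAN section was from a rat that had received PAN and ate ad libitum, and was taken at 5 months from injection, which was 6 weeks post treatment. The PAN_LS-FMD section was from a rat given PAN on the same schedule and then 6 diet cycles. The healthy_LS-FMD section was from a rat without PAN that underwent 1 diet cycle followed by refeeding for 72 h. The healthy section was from a rat with no treatment. The diet groups therefore differed in the number of cycles and in the time since the last one as well as in the injection.

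Macrophages of the kidney lie between the tubules and around the glomeruli, and come from cells seeded before birth and from blood monocytes that enter the tissue. Their survival depends on signals through the receptor Csf1r, and they take up debris, present antigen and make complement C1q. In injured kidneys they gather near damaged tubules and near matrix-producing fibroblasts, and Spp1 (osteopontin) and Lum (lumican) are commonly used as marks of these. Several of the 10 genes are also used by other cells, such as Lyz2 by neutrophils, Cd68 and Ctss by other cells with many lysosomes, and Mrc1 by some endothelium.

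Promoter sequence was available for 8 of the 10 genes, from 250 bases before the start of the gene to 50 bases after it, from RefSeq on the rat build GRCr8. The letters GAGGAA, the core of the PU box that the myeloid factor PU.1 (gene Spi1) is known to bind, stood on either strand in 6 of these 8 promoters (Mrc1, Csf1r, Cd68, Ctss, Lyz2 and C1qb) and in 27.6% of all 33469 promoters of the table. The sequences of Mrc1 and Cd163, which had the largest folds below, of Cd68 and of C1qb are shown, with GAGGAA or its reverse complement in capitals. They lie at chr17:82157475-82157774 (plus strand), chr4:158770524-158770823 (plus strand), chr10:54882392-54882691 (minus strand) and chr5:154407778-154408077 (minus strand).
Mrc1: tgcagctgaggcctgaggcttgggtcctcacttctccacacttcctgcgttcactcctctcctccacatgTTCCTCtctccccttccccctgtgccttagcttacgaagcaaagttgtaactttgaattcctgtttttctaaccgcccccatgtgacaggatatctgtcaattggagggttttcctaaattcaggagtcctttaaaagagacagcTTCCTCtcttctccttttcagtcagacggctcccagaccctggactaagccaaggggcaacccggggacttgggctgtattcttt
Cd163: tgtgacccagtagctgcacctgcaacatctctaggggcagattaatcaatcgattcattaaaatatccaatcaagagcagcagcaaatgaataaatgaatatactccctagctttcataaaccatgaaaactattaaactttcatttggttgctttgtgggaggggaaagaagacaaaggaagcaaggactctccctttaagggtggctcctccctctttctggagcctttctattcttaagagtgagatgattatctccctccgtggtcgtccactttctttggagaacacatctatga
Cd68: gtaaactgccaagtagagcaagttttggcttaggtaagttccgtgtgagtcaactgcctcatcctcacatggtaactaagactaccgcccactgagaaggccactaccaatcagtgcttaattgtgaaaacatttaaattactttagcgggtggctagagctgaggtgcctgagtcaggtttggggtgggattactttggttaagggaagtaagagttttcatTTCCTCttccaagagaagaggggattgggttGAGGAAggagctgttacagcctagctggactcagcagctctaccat
C1qb: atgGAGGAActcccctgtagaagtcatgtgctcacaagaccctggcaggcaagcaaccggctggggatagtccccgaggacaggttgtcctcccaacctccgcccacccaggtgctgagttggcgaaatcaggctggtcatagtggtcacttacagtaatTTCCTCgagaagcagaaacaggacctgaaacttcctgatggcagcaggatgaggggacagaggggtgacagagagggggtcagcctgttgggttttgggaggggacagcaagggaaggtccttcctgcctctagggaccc
Mrc1, Cd68 and C1qb each held 2 copies, and Cd163 held 0 in this window. The longer forms GAGGAAG, GAGGAAGT and AGGAAGT, which overlap the first, stood in 4, 1 and 4 of the 8 promoters, against 12.4%, 2.42% and 8.41% of all, and GGGAAGTG in 1, against 2.12%. An AP-1 motif (TGANTCA) stood in 1 promoter (Cd68), against 7.33%, and a C/EBP motif (TTGCNNAA) in 1 (Lyz2), against 10.6%. The E-box CACGTG, its longer form TCACGTG and the CLEAR motif of lysosomal genes, which contains both, stood in 0 of the 8, against 6.42%, 3.20% and 0.233%, and TCATGTGAC in 1 (Ctss), against 0.433%. These 11 patterns were searched on both strands, and a match describes the letters only. In the RefSeq gene table, C1qb, C1qc and C1qa follow each other with 0 genes between them.

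Levels are given as UMIs (captured RNA molecules) per 1000000 UMIs of a section (CPM), with exact 95% Poisson intervals, and folds with exact conditional intervals. These cover counting error only. Intervals of 2 levels can overlap while the interval of their fold excludes 1. For Mrc1 in PAN_LS-FMD over healthy_LS-FMD, for example, the fold interval was 0.611 to 0.995. Overlap as given below therefore does not show that levels were equal. With 1 section per group there is no measure of the spread between animals and no test, so a gene was called by size alone, at a 2-fold difference with at least 20 UMIs over both sections. The sections held 24924170 UMIs (PAN), 34965670 (PAN_LS-FMD), 25330872 (healthy_LS-FMD) and 58568499 (healthy), in 2724 (PAN), 2187 (PAN_LS-FMD), 2593 (healthy_LS-FMD) and 2866 (healthy) spots. The 10 genes together had 64768 (PAN), 25971 (PAN_LS-FMD), 12281 (healthy_LS-FMD) and 33137 (healthy) of these. The healthy matrix came from Space Ranger 2.0.1 and the other 3 from version 1.2.1, so version and group cannot be told apart in comparisons with the healthy section, and haemoglobin transcripts made up 1.59% of its UMIs, against 0.161% to 0.234% in the other sections. Pairs of sections shared 1650 to 2279 spot barcodes, which mark positions on a slide and not cells.

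The PAN section had the highest level of each of the 10 genes. Their summed level was 2599 CPM in the PAN section, 743 CPM in the PAN_LS-FMD section, 485 CPM in the healthy_LS-FMD section and 566 CPM in the healthy section. Lyz2 was the largest part of this sum, at 1030 CPM (PAN), 319 CPM (PAN_LS-FMD), 203 CPM (healthy_LS-FMD) and 270 CPM (healthy). The sum, here and below, therefore follows the abundant genes most and sparse ones such as Cd163 and Ctss hardly at all. All 10 were called higher in PAN than in healthy kidney, where 26.9% of 13208 tested genes were called higher, and all 10 were called lower in PAN_LS-FMD than in PAN kidney, where 22.6% of 12850 genes were called lower. The summed level was 4.59-fold higher (4.53 to 4.65) in PAN than in healthy kidney and 3.50-fold lower (3.45 to 3.55) in PAN_LS-FMD than in PAN kidney. In whole tissue, fewer cells of a type and less RNA per cell cannot be told apart.

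**Figure D1:**
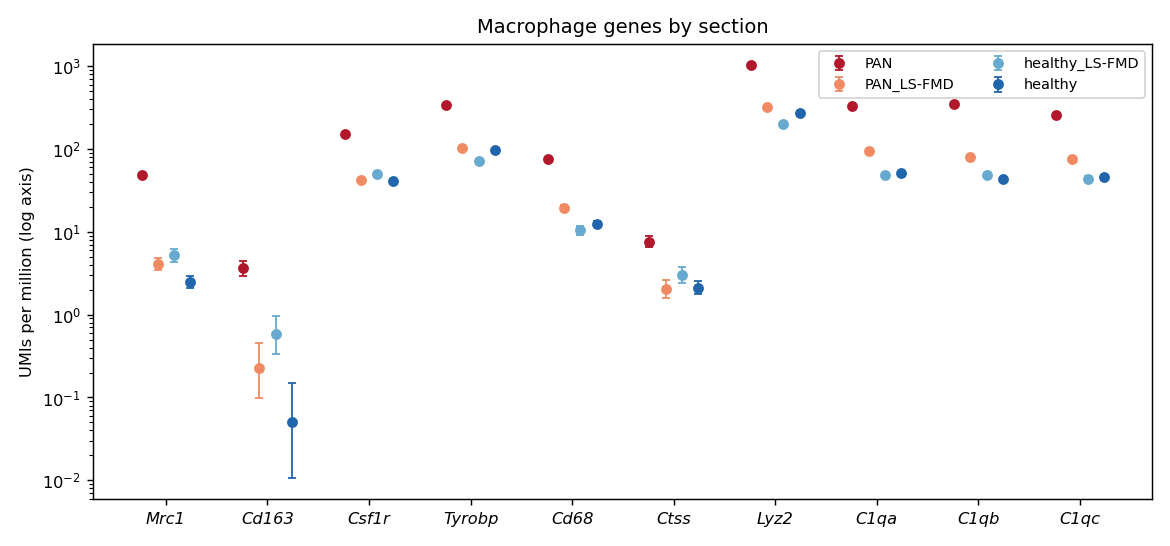
Level of each macrophage gene in the 4 sections, in CPM on a log axis. Points are section levels and bars are exact 95% Poisson intervals, which cover counting error only. The PAN point is the highest of the 4 for all 10 genes.

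Among the receptors of the cell surface, Mrc1, the mannose receptor that takes up glycoproteins, stood at 48.3 CPM in the PAN section, 4.06 CPM in the PAN_LS-FMD section, 5.21 CPM in the healthy_LS-FMD section and 2.48 CPM in the healthy section. PAN was far above the other 3, of which healthy was lowest and the 2 diet sections had overlapping intervals. Mrc1 was 19.5-fold higher (16.4 to 23.3) in PAN than in healthy kidney and 11.9-fold lower in PAN_LS-FMD than in PAN kidney. It was found in 33.4% of PAN spots, 6.22% of PAN_LS-FMD spots, 4.90% of healthy_LS-FMD spots and 4.40% of healthy spots at full depth.

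Cd163, the scavenger receptor for haemoglobin bound to haptoglobin, was sparse, with 90 UMIs in the PAN section (3.61 CPM), 8 in the PAN_LS-FMD section (0.229 CPM), 15 in the healthy_LS-FMD section (0.592 CPM) and 3 in the healthy section (0.0512 CPM). Its PAN interval (2.90 to 4.44 CPM) lay above all others, while that of PAN_LS-FMD overlapped those of both uninjected sections. The fold of PAN over healthy was 70.5, with an interval of 23.4 to 348 because it rests on 3 UMIs in the healthy section. Against healthy_LS-FMD, PAN was 6.10-fold higher (3.51 to 11.3), and PAN_LS-FMD was 15.8-fold lower than PAN.

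Csf1r, the receptor for the growth factors Csf1 and Il34, stood at 151 CPM in PAN, 42.7 CPM in PAN_LS-FMD, 49.5 CPM in healthy_LS-FMD and 41.2 CPM in healthy kidney. The intervals of PAN_LS-FMD and healthy overlapped, and healthy_LS-FMD lay between them and PAN. Csf1r was 3.66-fold higher (3.48 to 3.85) in PAN than in healthy kidney and 3.53-fold lower in PAN_LS-FMD than in PAN. Tyrobp, the adaptor that passes on signals of activating receptors such as Trem2, stood at 342 CPM in PAN, 102 CPM in PAN_LS-FMD, 71.4 CPM in healthy_LS-FMD and 97.1 CPM in healthy kidney. Here too PAN_LS-FMD and healthy overlapped, but healthy_LS-FMD was the lowest. The folds of Tyrobp were 3.52 (3.40 to 3.64) for PAN over healthy and 3.34-fold lower for PAN_LS-FMD against PAN.

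Of the lysosomal genes, Cd68, a membrane protein of late endosomes and lysosomes, stood at 76.4 CPM in PAN, 19.6 CPM in PAN_LS-FMD, 10.4 CPM in healthy_LS-FMD and 12.5 CPM in healthy kidney. PAN_LS-FMD remained above both uninjected sections, whose intervals overlapped. Cd68 was 6.13-fold higher (5.62 to 6.68) in PAN than in healthy kidney and 3.90-fold lower in PAN_LS-FMD than in PAN. Ctss, a cysteine protease that trims the invariant chain of MHC class II, had few UMIs, at 7.62 CPM in PAN, 2.06 CPM in PAN_LS-FMD, 3.04 CPM in healthy_LS-FMD and 2.12 CPM in healthy kidney. PAN stood apart, PAN_LS-FMD and healthy overlapped, and so did healthy_LS-FMD and healthy. Ctss was 3.60-fold higher (2.86 to 4.55) in PAN than in healthy kidney and 3.70-fold lower in PAN_LS-FMD than in PAN.

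Lyz2, the lysozyme of phagocytes, which cleaves bacterial cell walls, stood at 1030 CPM in PAN, 319 CPM in PAN_LS-FMD, 203 CPM in healthy_LS-FMD and 270 CPM in healthy kidney. None of its 4 intervals overlapped. It was 3.81-fold higher (3.74 to 3.89) in PAN than in healthy kidney and 3.23-fold lower in PAN_LS-FMD than in PAN.

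The 3 chains of C1q, the recognition part of the first complement component, had folds in the same direction. C1qa stood at 332 CPM in PAN, 95.9 CPM in PAN_LS-FMD, 48.6 CPM in healthy_LS-FMD and 51.3 CPM in healthy kidney. C1qb stood at 351 CPM in PAN, 80.7 CPM in PAN_LS-FMD, 48.8 CPM in healthy_LS-FMD and 42.9 CPM in healthy kidney. C1qc stood at 256 CPM in PAN, 76.6 CPM in PAN_LS-FMD, 44.0 CPM in healthy_LS-FMD and 46.0 CPM in healthy kidney. For all 3, PAN was highest and PAN_LS-FMD was above both uninjected sections without overlap. They were 6.48-fold, 8.18-fold and 5.57-fold higher in PAN than in healthy kidney and 3.47-fold, 4.35-fold and 3.35-fold lower in PAN_LS-FMD than in PAN. Shares of spots depend on depth, so spots were drawn down to 4000 UMIs each and shallower ones left out, which kept 2478 spots in PAN, 2174 in PAN_LS-FMD, 2443 in healthy_LS-FMD and 2862 in healthy kidney. After this, C1qb was found in 72.7% of PAN spots (91.4% at full depth), 29.2% of PAN_LS-FMD spots (69.6%), 19.1% of healthy_LS-FMD spots (35.7%) and 14.8% of healthy spots (54.4%). All 3 chains were found together in 35.8% of PAN spots (33.9 to 37.8), 3.36% of PAN_LS-FMD spots, 1.06% of healthy_LS-FMD spots and 0.804% of healthy spots.

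The median of the 10 log2 folds of PAN over healthy was 2.55, against 0.51 over all tested genes. That of PAN_LS-FMD over PAN was -1.85, against -0.37. Scaling by the median ratio of genes in place of the total moved the median of all genes to 0.00 for PAN over healthy, and the log2 fold of the summed level to 1.69, against 2.20 as reported. With healthy_LS-FMD, whose matrix has the same software version as PAN, as the uninjected section, all 10 genes were again called higher in PAN, where 17.0% of 12832 genes were, with folds of 2.51 (Ctss) to 9.26 (Mrc1) and 5.36 for the sum. PAN is shared by the first 2 comparisons and the healthy section by several, so their values are given side by side only.

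**Figure D2:**
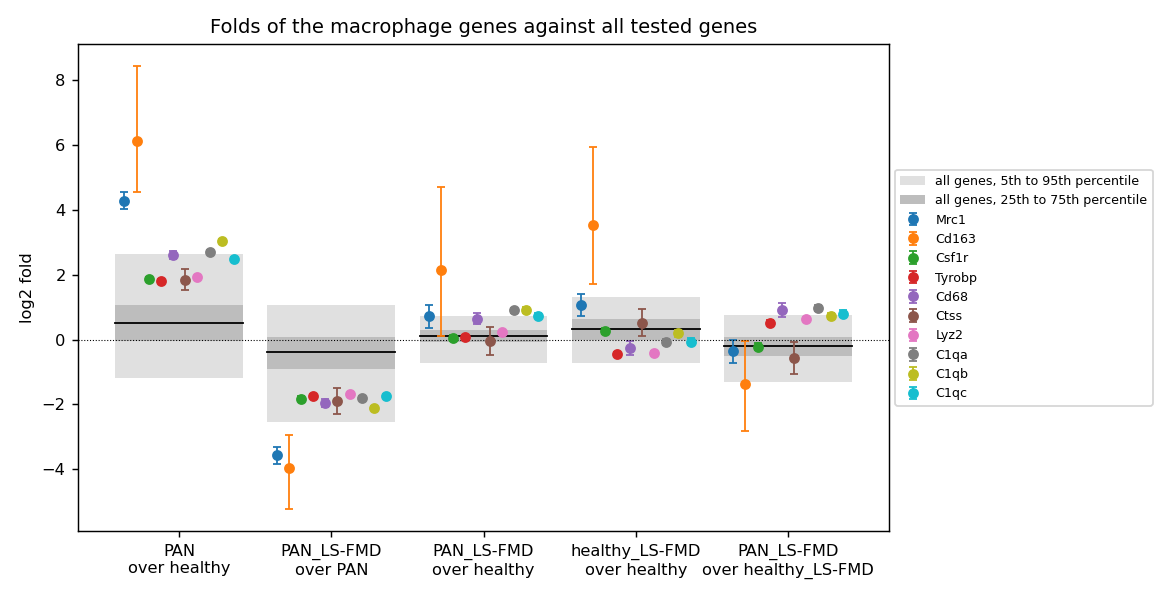
Log2 fold of each macrophage gene in 5 comparisons. Coloured points are the 10 genes with exact 95% counting intervals, the grey bands span the 5th to 95th and the 25th to 75th percentile of all tested genes, and the black line is their median. All 10 points lie above 0 for PAN over healthy and below 0 for PAN_LS-FMD over PAN, and they lie on both sides of 0 for healthy_LS-FMD over healthy.

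The level left in the diet-treated injected kidney differed by gene. PAN_LS-FMD was 1.87-fold (C1qa), 1.88-fold (C1qb), 1.66-fold (C1qc), 1.64-fold (Mrc1) and 1.57-fold (Cd68) higher than healthy. Lyz2 was 1.18-fold higher (1.15 to 1.21), while Csf1r (1.04, interval 0.970 to 1.11), Tyrobp (1.05, interval 1.01 to 1.10) and Ctss (0.973, interval 0.717 to 1.31) were near 1, and the sign of Csf1r and Tyrobp turned under scaling by the median ratio. None of 9 tested genes was 2-fold higher, where 2.78% of 12977 genes were, and 5 of 9 were 1.5-fold higher, where 8.43% were. Cd163, with 8 and 3 UMIs, was not tested. The summed level was 1.31-fold higher (1.29 to 1.33) in PAN_LS-FMD than in healthy kidney.

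Set against the other diet section, PAN_LS-FMD had 1.53-fold the summed level of healthy_LS-FMD, a log2 difference of 0.62. No gene was 2-fold higher, where 3.14% of 12582 genes were. At 1.5-fold, 5 of 10 genes were higher, where 7.22% were, namely C1qa (1.97), Cd68 (1.88), C1qc (1.74), C1qb (1.65) and Lyz2 (1.57). Cd163 was 2.59-fold lower on 8 against 15 UMIs, the 1 gene called 2-fold lower, where 8.62% of genes were. Mrc1 (0.779), Csf1r (0.862) and Ctss (0.677) were also below 1 with intervals that excluded it. The median log2 fold of all tested genes was itself -0.20 here, against 0.59 for the 10 genes. Csf1r (-0.21) lay at that median of all genes, and Mrc1 (-0.36) and Ctss (-0.56) below it.

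In uninjected rats, the diet section had a summed level 0.857 times (0.839 to 0.875) that of the healthy section, and the genes differed in direction. Mrc1 was 2.10-fold higher (1.65 to 2.68), the only one of 9 tested genes called, where 10.0% of 12967 genes were called higher, and it missed 2-fold under scaling by the median ratio (log2 0.73, against 1.07 as reported). Tyrobp (0.735), Lyz2 (0.752) and Cd68 (0.836) were lower with intervals below 1. Ctss (log2 fold 0.52), Csf1r (0.26) and C1qb (0.19) were higher with intervals above no change, but under the median ratio Csf1r and C1qb turned below it (log2 -0.08 and -0.16). The median log2 fold of the 10 genes was 0.06, against 0.33 over all genes.

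The higher level in the PAN section was seen in each zone. Spots were clustered within each section without the 10 genes, Spp1 and Lum, and clusters were given to cortex, outer stripe, medulla or blood-rich zones by marker genes of nephron segments and red blood cells. The summed level in PAN over healthy was 2649 against 560 CPM in cortex (4.73-fold), 2319 against 522 CPM in outer stripe (4.45-fold), 2590 against 736 CPM in medulla (3.52-fold) and 3998 against 473 CPM in blood-rich spots (8.46-fold, 7.97 to 8.97). The blood-rich spots were unlike in other leading genes, which included Ccl19 and Cd79b in PAN and Ahsp and Alas2 in healthy kidney. A cluster led by Myh11 and Acta2 was blood-rich in PAN, while one with these among its leading genes in healthy kidney got no zone. In cortex, outer stripe and medulla 10 of 10, 10 of 10 and 9 of 9 tested genes were called higher, where 22.9%, 27.5% and 22.1% of genes were. In PAN_LS-FMD over PAN, the sum was 3.33-fold lower in cortex, 3.34-fold lower in outer stripe and 3.37-fold lower in medulla, with 10 of 10, 10 of 10 and 9 of 9 genes called, where 16.4%, 24.9% and 22.6% were. Mrc1 was 20.1-fold, 22.2-fold and 24.0-fold higher in PAN than in healthy cortex, outer stripe and medulla.

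In PAN_LS-FMD over healthy, which had no blood-rich zone in common, the sum was 1.42-fold higher in cortex (1.38 to 1.46), 1.33-fold in outer stripe and 1.05-fold in medulla (0.995 to 1.10). In healthy_LS-FMD over healthy, it was 0.667 times the level in cortex (0.638 to 0.696), 0.752 times in outer stripe, 0.995 times in medulla (0.956 to 1.03) and 1.20 times in blood-rich spots (1.09 to 1.32). Zones were drawn separately in each section, so their borders may not match between sections.

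Within sections, the summed level of the macrophage genes was higher in medulla than in cortex in both uninjected rats. It was nearly equal in medulla and cortex in both injected rats. The ratio of medulla over cortex for the summed level was 0.978 in PAN (0.957 to 0.999), 0.966 in PAN_LS-FMD (0.923 to 1.01), 1.96 in healthy_LS-FMD (1.87 to 2.06) and 1.31 in healthy kidney (1.27 to 1.36). In healthy_LS-FMD, 6 of 9 genes were 1.5-fold higher in medulla, where 24.5% of 10851 genes were, led by Csf1r (2.74), Ctss (2.71), Tyrobp (2.33) and Lyz2 (2.30). In healthy kidney 1 of 9 was (Ctss, 2.47), where 14.3% of genes were, and in PAN and PAN_LS-FMD 0 of 10 and 0 of 9 were, where 14.6% and 8.64% were. In PAN, Csf1r (1.19) and Tyrobp (1.14) were somewhat higher in medulla and Lyz2 (0.886) lower, each with an interval that excluded 1. The C1q chains had medullary ratios of 1.24 to 1.53 in healthy_LS-FMD, below those of Csf1r, Tyrobp and Lyz2. Not every gene followed the sum in uninjected rats. In healthy kidney the intervals of Mrc1 (0.852, 0.433 to 1.57) and Cd68 (0.929, 0.723 to 1.18) included 1. So did that of Mrc1 in healthy_LS-FMD (1.14, 0.721 to 1.79). The ratio of the summed level stayed above 1 in both uninjected sections when the zones were drawn in 3 other ways. In PAN and PAN_LS-FMD it moved to either side of 1 (0.911 to 1.23).

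**Figure D3:**
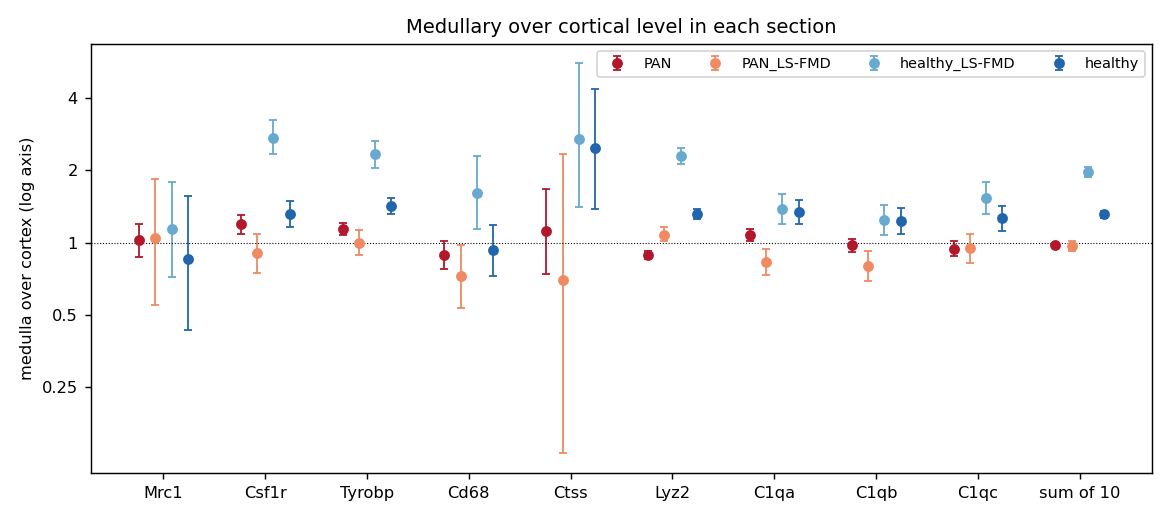
Ratio of medullary over cortical level for 9 macrophage genes and for the sum of 10, by section, on a log axis. Bars are exact 95% counting intervals, and the dotted line marks equal levels. Healthy_LS-FMD lies above the other sections for Csf1r, Tyrobp, Lyz2 and the sum. Cd163 is not drawn because the medulla of the healthy section held 0 of its UMIs.

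Among the 13 clusters of the PAN section, the summed level ran from 1802 CPM in the cluster led by the proximal tubule genes Slc7a12 and Slc7a13 to 4067 CPM in one led by haemoglobin genes, Ccl19 and Cd79b. The next highest was 3333 CPM in the cluster led by Postn and Lum, genes of activated fibroblasts, followed by one of 11 spots led by Myh11 and Acta2, genes of smooth muscle, at 3230 CPM. The cluster led by Postn and Lum (297 spots) was counted as cortex, on a marker score of 0.21. The lowest PAN cluster was above the highest cluster of each other section, which was 970 CPM in PAN_LS-FMD, 879 CPM in healthy_LS-FMD and 1049 CPM in healthy kidney. Without the blood-rich and Lum-led clusters of PAN, all 10 genes were still called higher than in healthy kidney and the log2 fold of the sum was 2.10.

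**Figure D4:**
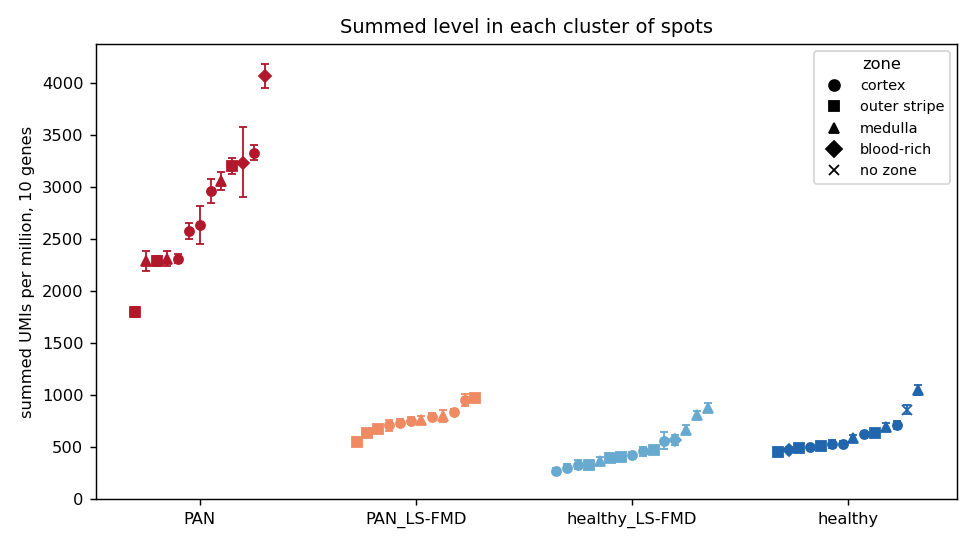
Summed level of the 10 macrophage genes in each cluster of spots, by section, in CPM. Symbols give the zone of a cluster and bars are exact 95% Poisson intervals. All 13 PAN clusters, from 1802 to 4067, lie above all clusters of the other sections.

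In spots drawn down to 4000 UMIs, the 10 genes together had a median of 10 UMIs per PAN spot (lowest 0, highest 40), 3 per PAN_LS-FMD spot (0 to 19), 2 per healthy_LS-FMD spot (0 to 13) and 2 per healthy spot (0 to 16). The 10% of spots with most held 19.9% of these UMIs in PAN, 23.8% in PAN_LS-FMD, 28.8% in healthy_LS-FMD and 27.1% in healthy kidney. The share of spots with no UMI of any of the 10 was 0.0404% in PAN (1 of 2478), 6.72% in PAN_LS-FMD, 19.3% in healthy_LS-FMD and 13.3% in healthy.

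Spp1, a secreted phosphoprotein made by injured tubules and also by some macrophages, stood at 17165 CPM in PAN, 225 CPM in PAN_LS-FMD, 1292 CPM in healthy_LS-FMD and 332 CPM in healthy kidney. Lum, a proteoglycan of the fibrous matrix made by fibroblasts, stood at 19.7 CPM in PAN, 0.286 CPM in PAN_LS-FMD, 1.42 CPM in healthy_LS-FMD and 1.35 CPM in healthy kidney. Both were highest in PAN and lowest in PAN_LS-FMD. Of the 10 macrophage genes, only Ctss had its lowest level in PAN_LS-FMD, and its interval there overlapped that of healthy kidney.

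Within the PAN section, macrophage genes were higher in spots with Lum. Of 2478 PAN spots with 4000 UMIs or more, 171 (6.90%) held Lum after drawing down, and 335 of 2724 (12.3%) did without it. The summed level was 3433 CPM in spots with Lum and 2651 CPM in spots without, a ratio of 1.29 (1.24 to 1.35). Cd68 (115 against 75.5 CPM, ratio 1.53), C1qb (494 against 352 CPM, ratio 1.40), Mrc1 (70.2 against 50.6 CPM, ratio 1.39, interval 1.01 to 1.87) and Tyrobp (465 against 343 CPM, ratio 1.36) had the largest ratios with intervals above 1. Csf1r (1.10), Ctss (1.15) and Cd163 (1.69 on 5 UMIs) had intervals that included 1. At 1.5-fold, 2 of 10 genes (Cd68 and Cd163) were higher, where 9.48% of 10825 genes were. Median depth was 8709 UMIs in spots with Lum and 8970 UMIs in spots without.

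The ratio for Lum differed between zones of the PAN section. It was 1.26 (1.19 to 1.33) in cortex with 105 Lum spots, within 1.04 to 1.38 in outer stripe with 18, 0.983 (0.824 to 1.16) in medulla with 13 and 1.05 (0.957 to 1.15) in blood-rich spots with 35. Over spots, the rank correlation of the summed level with Lum was 0.13 (n = 2478 spots, which share 1 section and 1 library).

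Spp1 was found in 100% of PAN spots, so co-detection as such could not separate them, and spots were ordered by Spp1 and split into tertiles. The summed level was 2635 CPM in the top tertile of Spp1 and 2706 CPM in the bottom one, a ratio of 0.974 (0.946 to 1.00), while Spp1 itself was 26263 and 9735 CPM. Mrc1 was higher in the top tertile (59.0 against 44.5 CPM, ratio 1.33, interval 1.07 to 1.65), and Cd163 lower (9 against 21 UMIs, ratio 0.429, interval 0.173 to 0.976). The other 8 genes had ratios of 0.686 to 1.01 with intervals that included 1. At 1.5-fold, 0 of 10 genes were higher and 1 was lower (Cd163), where 5.21% and 5.66% of 10318 genes were. The ratio for Mrc1 was 1.49 (1.02 to 2.21) within cortex, 1.57 (1.03 to 2.41) within outer stripe, 1.23 (0.749 to 1.99) within medulla and 0.903 (0.269 to 2.41) within blood-rich spots. That of the sum was 0.786 (0.684 to 0.901) within blood-rich spots. The rank correlation of the summed level with Spp1 over spots was 0.00.

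Split by Lum and Spp1 together, with zones pooled, the summed level was 4013 CPM (3755 to 4285) in the 56 spots with Lum in the bottom tertile of Spp1, 3206 CPM in the 68 of the middle one and 3069 CPM (2824 to 3330) in the 47 of the top one. In spots without Lum it was 2610 CPM in the bottom, 2737 CPM in the middle and 2609 CPM in the top tertile. Blood-rich spots, which were 35 of the 171 spots with Lum and 113 of the 2307 without, had 4307 CPM with Lum and 4100 CPM without.

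**Figure D5:**
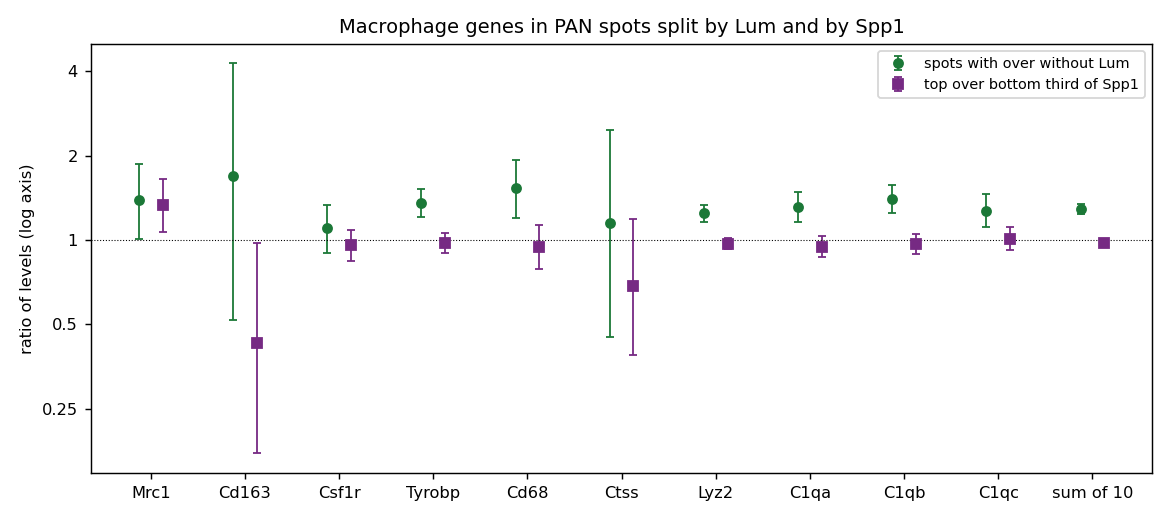
Ratio of the level of each macrophage gene, and of their sum, in PAN spots with over without Lum (circles) and in the top over the bottom tertile of Spp1 (squares), on a log axis. Spots were drawn down to 4000 UMIs and bars are exact 95% counting intervals. The sum lies at 1.29 for Lum and at 0.974 for Spp1.

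In the other sections, the top over the bottom tertile of Spp1 gave a ratio for the summed level of 1.07 (1.01 to 1.13) in PAN_LS-FMD, 1.95 (1.82 to 2.09) in healthy_LS-FMD and 1.25 (1.18 to 1.32) in healthy kidney. For Csf1r in healthy_LS-FMD it was 2.53. After drawing down, only 53.2% of PAN_LS-FMD spots and 57.8% of healthy spots held Spp1. The bottom tertile of these 2 sections was therefore only a part of their spots at 0, with ties split by the order of spots in the matrix. Within cortex the ratio for the sum was 0.983 (0.904 to 1.07) in PAN_LS-FMD, 1.23 (0.962 to 1.55) in healthy_LS-FMD and 1.03 (0.934 to 1.14) in healthy kidney. In healthy_LS-FMD, 639 of the 815 spots of the top tertile lay in medulla, and the ratio there was 2.52 within medulla (1.96 to 3.28) and 1.23 within outer stripe (1.05 to 1.45). Too few spots held Lum after drawing down (2 in PAN_LS-FMD, 20 in healthy_LS-FMD, 21 in healthy) for a comparison there.

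Of the gene lists set beside the 10 genes, 16 of 16 general macrophage genes were higher in PAN than in healthy kidney, with a median log2 fold of 2.36. They included Fcgr2b (an inhibitory Fc receptor, 16.1-fold), Itgam (an integrin of myeloid cells, 9.56-fold), Ms4a6a (8.64-fold) and Ms4a7 (7.30-fold). In PAN_LS-FMD over PAN, 15 of 16 were lower. Of genes tied to resident macrophages, 4 of 8 tested were higher, namely Siglec1 (37.9-fold on 355 and 22 UMIs), Folr2 (3.92-fold), Lyve1 (3.49-fold) and Cx3cr1 (3.21-fold), while Vsig4 had 0 UMIs in all 4 sections. Of genes tied to monocytes and infiltrating cells, 4 of 6 were higher, among them Itgal (15.9-fold), Irf8 (6.04-fold) and S100a4 (4.10-fold), with Plac8 at 1.63-fold, and Ccr2 had 1 UMI in PAN and 0 in healthy kidney. 

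Genes that act with the 10 were also higher in PAN than in healthy kidney. Both ligands of Csf1r were, with Csf1 at 40.6 CPM in PAN, 15.7 CPM in PAN_LS-FMD, 20.8 CPM in healthy_LS-FMD and 15.9 CPM in healthy kidney (2.55-fold) and Il34 at 33.1 CPM in PAN, 12.8 CPM in PAN_LS-FMD, 11.6 CPM in healthy_LS-FMD and 11.9 CPM in healthy kidney (2.78-fold). The proteases C1r (4.03-fold) and C1s (4.86-fold), which bind C1q, and their inhibitor Serping1 (3.33-fold) made 3 of 3. All 5 tested genes in the list of Tyrobp partners and signalling were higher. Among them were Trem2 (16.4-fold), a lipid receptor, and Syk (5.70-fold), the kinase it calls on. Of lysosomal genes 3 of 8 were higher (Ctsz 5.32-fold, Ctsd 3.11-fold, Grn 2.26-fold), with Ctsb at 1.64-fold. Of lipid and scar-associated genes 5 of 8 were higher, among them Gpnmb (17.1-fold) and Apoe (3.28-fold), and Fabp5 was lower (0.337). Of 7 chemoattractants 5 were higher, including Ccl7 (5.11-fold), Ccl2 (4.04-fold), Ccl3 (3.72-fold) and Ccl4 (3.32-fold).

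Markers of T, B, dendritic and mast cells, fibroblasts and injured tubules were mostly higher in PAN too, while those of neutrophils and endothelium were mixed. The summed level of 5 T-cell genes was 107 CPM in PAN, 17.5 CPM in PAN_LS-FMD, 12.9 CPM in healthy_LS-FMD and 15.4 CPM in healthy kidney, and 5 of 5 were higher in PAN than in healthy kidney, Cd5 by 10.8-fold. The sum of 4 B-cell genes was 48.4 CPM in PAN, 0.915 CPM in PAN_LS-FMD, 3.91 CPM in healthy_LS-FMD and 2.89 CPM in healthy kidney, with 3 of 3 tested higher and Ms4a1 at 0 outside PAN. That of 6 dendritic cell genes was 118 CPM in PAN, 15.3 CPM in PAN_LS-FMD, 9.47 CPM in healthy_LS-FMD and 8.37 CPM in healthy kidney, with 3 of 4 tested higher, led by Clec10a (18.5-fold), which made 106 of the 118 CPM in PAN, while Cd209a was at 0.612 times the healthy level and Zbtb46 at 0 in PAN. That of 5 mast cell genes was 92.7 CPM in PAN, 15.6 CPM in PAN_LS-FMD, 34.0 CPM in healthy_LS-FMD and 17.2 CPM in healthy kidney, with 4 of 4 tested higher. Outside PAN this sum was nearly all Kit, at 15.5 CPM in PAN_LS-FMD, 33.5 CPM in healthy_LS-FMD and 17.0 CPM in healthy kidney. In PAN, Kit stood at 37.2 CPM and Mcpt1 at 47.8 CPM. Neutrophil genes summed to 10.7 CPM in PAN, 3.43 CPM in PAN_LS-FMD, 4.66 CPM in healthy_LS-FMD and 6.33 CPM in healthy kidney, with 1 of 3 higher (Csf3r, 4.48-fold), and S100a9 was at 0.843 and S100a8 at 1.55 times the healthy level. Fibroblast genes were higher in 6 of 6 (Col3a1 9.39-fold, Col1a1 9.23-fold) and injured-tubule genes in 4 of 5 tested (Havcr1 25.9-fold, Lcn2 23.0-fold). Endothelial genes summed to 214 CPM in PAN, 214 CPM in PAN_LS-FMD, 322 CPM in healthy_LS-FMD and 224 CPM in healthy kidney, with 1 of 4 higher (Cdh5, 2.01-fold), Tek at 1.32, Kdr at 0.925 and Emcn at 0.642 times the healthy level. The part of these cells in the levels of the 10 genes was not tested.

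The genes whose pattern was most like that of the 10 were sought over the 54 clusters of the 4 sections, among 9632 genes, by Pearson's r with the summed level after each section was centred on its own mean. The clusters share library and depth within a section. Fcer1g, the common chain of Fc receptors, came first (r = 0.92), followed by Psmb9, a subunit of the immunoproteasome (0.90), Fxyd5 (0.89), Marcksl1 (0.89), C1s (0.89), Ifngr1, a receptor chain for interferon gamma (0.89), Ifitm1 (0.88), C1r (0.88), Rgs10 (0.87) and Ifi27 (0.86). Over the 13 PAN clusters alone, the leading genes were others, 0 of the 10 in common. They were Pld4, Cd74, RT1-A1, Clec10a, RT1-A2, Ybx3, Rpl11, Gnai2, LOC100364435 and Lrrc32. The genes from Fcer1g to Ifi27 still had r of 0.78 (Marcksl1) to 0.90 (Psmb9) over the PAN clusters. Among the 10 genes, Tyrobp was most like the sum of the other 9 (r = 0.95), then Lyz2 (0.89), C1qc (0.89), Csf1r (0.87), C1qa (0.83) and C1qb (0.76), while Mrc1 (0.50), Cd68 (0.43), Ctss (0.41) and Cd163 (0.29) were less so. Over the 13 PAN clusters alone, r was 0.85 for Mrc1, 0.52 for Cd163, 0.30 for Cd68 and 0.30 for Ctss. The section levels of Mrc1 outside PAN, and of Ctss and Cd163 in all sections, lay below the 10 CPM added before taking logs.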

How the data were processed

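Visium spatial gene expression was measured in 4 rat kidney sections, 1 per group. The deposited matrices hold counts, whole-number UMI counts per gene and spot with no normalization, made by the authors with Space Ranger 1.2.1 (PAN, PAN_LS-FMD, healthy_LS-FMD) and 2.0.1 (healthy), per the file headers. The genome build and annotation are not given in the sources used here. Spots are those deposited as over tissue. Spots under 500 UMIs were left out (5, 3, 2 and 3 in PAN, PAN_LS-FMD, healthy_LS-FMD and healthy), and no doublet caller was run because a spot is not a cell.

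UMIs were summed over spots and divided by all UMIs of those spots. Intervals are exact Poisson (levels), exact conditional Poisson (folds) and Clopper-Pearson (shares) at 95%, and cover counting error only. A count of 3 was the floor for genes with 0 UMIs. For clustering, counts were scaled to 10000 per spot, logged and reduced from 2000 variable genes to 30 components, with 15 neighbours and Leiden resolution 1 (scanpy 1.11.5, Python 3.11.15). Clusters were given to zones by the highest marker score. A cluster was blood-rich only where a red blood cell gene was among its 10 leading genes, and 1 healthy cluster got no zone. The data had been looked at before this scoring rule was chosen. Shares and ratios within sections used spots drawn down without replacement to 4000 UMIs. Fold calls and intervals were tested on simulated data.

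The 10 genes and all lists were chosen with earlier results of these data known. Named genes were the 10, Spp1 and Lum, the 10 genes most like them over clusters (log2(CPM + 10), at least 500 UMIs) and, per list, up to 4 genes with the largest absolute log2 fold of PAN over healthy on at least 50 UMIs. Genes given at 0 UMIs or leading a cluster were named after their values were seen. Other scalings, spot minimums, fold sizes, zone definitions and thinning depths were tried.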

Additional observations from a re-analysis of the deposited data

Results flagged for a closer look

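For 5 of the 10 genes PAN_LS-FMD was lower than PAN while healthy_LS-FMD was higher than healthy kidney, with both counting intervals excluding 1. The medians of all tested genes went in the same directions, at log2 folds of -0.37 and 0.33. In uninjected rats Csf1r (0.26) and C1qb (0.19) lay below that median. The share of all genes with this pattern was not counted. The difference of the 2 log2 folds (PAN_LS-FMD over PAN minus healthy_LS-FMD over healthy) was -4.64 for Mrc1, -7.52 for Cd163, -2.08 for Csf1r, -2.42 for Ctss and -2.31 for C1qb. For Csf1r and C1qb the fold in uninjected rats turned below 1 under scaling by the median ratio, and for Cd163 it rests on 15 and 3 UMIs. The difference was not tested, since each group has 1 section, and the diet groups differ in cycles (6 and 1) and in the time since the diet.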

How the results depend on the processing

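Each group was 1 section, so none of the folds carries an error between animals, and 3 comparisons also carry a difference of software version. No paired analysis was possible because each group holds 1 section and no result comes from a test. The counts of 10 genes called for PAN over healthy and for PAN_LS-FMD over PAN were the same under all alternatives run on them. Some alternatives were chosen after seeing the data. These were healthy_LS-FMD as the uninjected section, PAN without the blood-rich and Lum-led clusters, and another thinning seed. Of the 2 counts, healthy_LS-FMD as the uninjected section was applied to PAN over healthy only. The seed was applied only to the Lum and Spp1 ratios. The count for PAN_LS-FMD over healthy, 0 as reported, was 5 at 1.5-fold and 1 without the UMI minimum. That for healthy_LS-FMD over healthy, 1 as reported, was 0 under median ratios and under the mean of each spot's CPM, and 2 without the UMI minimum. Medulla over cortex, with clusters at resolution 0.5, was 1.23 in PAN, 0.911 in PAN_LS-FMD and 2.18 in healthy_LS-FMD. With zones by spot scores it was 1.03, 1.04, 1.70 and 1.23 in PAN, PAN_LS-FMD, healthy_LS-FMD and healthy, and with 30 neighbours 1.02 in PAN. The Lum ratio of the sum was 1.18 without thinning and 1.36 outside the cortex, a pool of zones with unequal levels that lies above the ratio within each of them, and the Spp1 ratio 1.00 at 2000 UMIs, 1.04 without thinning and 1.02 in cortex. The genes most like the 10 shared 0 with those over PAN clusters only. The cause of these changes was not tested. Of 297 other log2 folds recomputed, 232 stayed within the counting interval of the reported value, 65 moved outside it and 0 of those called reversed. Cd163 (3 to 90 UMIs) and Ctss (72 to 190) are limited by depth.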
